A study of Mus musculus with 23 samples.

Results

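Embryonic globin and erythroid genes were followed through 4 stages of blood cell development from mouse embryonic stem (ES) cells, with and without the leukaemic fusion protein RUNX1-ETO. The set comprised 9 of the 20145 genes with a matched probe and was picked by gene symbol. It held the globins Hbb-y, Hbb-bh1, Hba-x and Hba-a1, the haem enzyme Alas2, the membrane protein Slc4a1, the receptor Epor and the transcription factors Klf1 and Nfe2. Probes were assigned through their RefSeq accession, and the probe with the highest mean over the arrays represented each gene. All 9 genes had a probe and were among the 15202 genes tested, those that reached a log2 intensity of 6.5 on at least 1 array. Only Hbb-y had a second probe.

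The cells were of 1 ES cell line with a C57BL/6 label, which carries human RUNX1-ETO behind a TET-responsive promoter on a RUNX1 wild-type background, and were grown without doxycycline (Dox) or with 0.1 µg/ml Dox. In blast culture, Dox was added on day 1 and cells were sorted on day 2 as haemogenic endothelium (HE, KIT+ Tie2+ CD41-), HE2 (KIT+ Tie2+ CD41+) and progenitors (KIT+ Tie2- CD41+). Myeloid progenitors came from progenitors of the blast culture that were placed in expansion medium with stem cell factor, Flt3 ligand and thrombopoietin, where the induced cells had Dox for 12 h. Each group had 3 arrays, apart from 2 uninduced and 2 induced progenitor arrays. A further array of uninduced progenitors, labelled both as a technical replicate and as replicate 3, was normalized with the others but left out of the tests. Induced myeloid progenitor array 3, called a biological replicate in one label and a technical replicate in another, was kept as replicate 3. No cells with Dox but without the transgene were analysed here, so that RUNX1-ETO and Dox itself cannot be told apart.

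Haemoglobin joins α-type and β-type globin chains, each with a haem group. In the mouse, the first, primitive red cells of the yolk sac use the embryonic β-type globins of Hbb-y and Hbb-bh1 and the embryonic α-type globin of Hba-x together with adult α-globin, and later red cells switch to the adult β-type genes. KLF1 is a transcription factor that activates a large part of the red cell program, NFE2 binds globin control regions and also acts in megakaryocytes, and EPOR receives the erythropoietin signal on which maturing red cells depend. ALAS2 starts haem synthesis in erythroid cells, and SLC4A1 (band 3) is the anion exchanger of the red cell membrane.

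The sequences before 4 of the genes are given because these genes responded in contrasting ways: Hbb-y and Alas2 rose with Dox, whereas Hba-x and Hba-a1 did not pass the test at any stage. The RefSeq table of GRCm38.p6 matched 6 of the 9 genes. Each line holds the 250 bases before the transcript start, 5′ to 3′ on the strand of the gene, for Hbb-y at chr7:103853208-103853457 (minus strand), Alas2 at chrX:150547167-150547416 (plus), Hba-x at chr11:32276350-32276599 (plus) and Hba-a1 at chr11:32283422-32283671 (plus). Capitals mark matches on either strand to short motifs. The motif of GATA factors was searched as AGATAA or, with another first letter, as TGATAA. The core of the box that KLF1 can bind was searched as CCACCC, the core of the RUNX motif as TGTGGT, and the CCAAT box and the TATA box (TATAA) by their own letters.
Hbb-y: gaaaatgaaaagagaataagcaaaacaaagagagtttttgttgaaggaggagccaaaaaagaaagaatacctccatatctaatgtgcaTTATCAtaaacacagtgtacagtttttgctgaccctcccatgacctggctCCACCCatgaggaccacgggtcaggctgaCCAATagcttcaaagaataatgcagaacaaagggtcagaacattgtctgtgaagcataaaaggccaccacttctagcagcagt
Alas2: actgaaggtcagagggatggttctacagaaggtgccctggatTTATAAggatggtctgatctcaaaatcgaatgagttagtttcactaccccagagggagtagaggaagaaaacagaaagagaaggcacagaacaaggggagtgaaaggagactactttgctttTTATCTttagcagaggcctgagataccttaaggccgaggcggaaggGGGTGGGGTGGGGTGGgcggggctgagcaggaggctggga
Hba-x: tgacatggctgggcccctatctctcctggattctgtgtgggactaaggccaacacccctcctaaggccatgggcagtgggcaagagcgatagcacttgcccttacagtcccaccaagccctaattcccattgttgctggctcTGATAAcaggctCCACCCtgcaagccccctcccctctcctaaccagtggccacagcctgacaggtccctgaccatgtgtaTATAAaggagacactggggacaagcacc
Hba-a1: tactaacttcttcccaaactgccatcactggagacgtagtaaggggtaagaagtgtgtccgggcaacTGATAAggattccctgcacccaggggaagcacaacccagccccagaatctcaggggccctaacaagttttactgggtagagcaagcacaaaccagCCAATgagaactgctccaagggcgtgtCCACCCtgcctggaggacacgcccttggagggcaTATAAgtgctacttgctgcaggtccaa

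A GATA motif was found in all 4 windows, 162 bases before the start in Hbb-y, 86 in Alas2, 108 in Hba-x and 183 in Hba-a1. TGATAA occurred in 4 and AGATAA in 2 of the 6 matched genes, compared with 7.94% and 9.99% of 32851 promoters in the table. CCACCC occurred in 5 of the 6 genes and in 28.1% of all promoters, and was found once in each of the 3 globin windows and 3 times in that of Alas2. The RUNX core TGTGGT was found upstream of Klf1 and Epor and in 14% of all promoters, and no match lay in the 4 windows printed. TATAA lay 28 and 27 bases before the start of Hba-x and Hba-a1. Binding at these sequences was not measured on the arrays.

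Between 48.8 and 78.4% of the spots of an array were well above background, and no spot was saturated. The arrays lay on 3 slides. All 6 myeloid progenitor arrays, induced progenitor array 2 and the technical replicate shared slide 3 and its scan day, whereas the other arrays were spread over slides 1 and 2. The probe for Runx1t1, the mouse gene of ETO, separated induced from uninduced arrays at every stage, with log2 changes of 1.24, 2.08, 3.96 and 2.06 from HE through to myeloid progenitors. The first of these missed the threshold of the unadjusted P (adjusted P = 0.0155 from limma), and whether the probe detects the human transgene was not tested. Itga2b, the gene of the sorting marker CD41, was higher in HE2 than in HE without Dox by a log2 difference of 1.1 that did not pass the test (adjusted P = 0.351 from limma). Set against uninduced arrays, the levels of the marker genes on induced arrays went in part against the sort labels. Itga2b read 9.58, 10.75 and 7.73 on the induced arrays of CD41+ HE2, which overlapped with 11.15, 9.49 and 11.46 on the uninduced arrays of CD41- HE. Tek, the gene of Tie2, read 10.91 and 11.29 on induced progenitor arrays, which are labelled Tie2-, within the range of 9.58 to 11.31 of the uninduced HE2 arrays, which are labelled Tie2+, compared with 8.71 and 8.63 on uninduced progenitor arrays. Among induced arrays alone, the group means followed the labels, although arrays of neighbouring groups overlapped. Itga2b had means of 7.49 in HE and 9.35 in HE2, and Tek of 12.91, 12.41 and 11.10 from HE to progenitors. The cells were sorted on surface protein, which was not measured here.

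The embryonic β-type globins and Alas2 rose with Dox in HE, HE2 and progenitors, whereas the α-type globins and Klf1 were not called. At each of the 3 stages of blast culture, the arrays with Dox lay above all those without it for Hbb-y and Hbb-bh1, and both genes were called upregulated. A call required an unadjusted P value no higher than 0.001 together with a 2-fold or larger change. In HE, 4 of the 9 genes were called, 3 up and 1 down, where 7.09% of all genes tested were called. In HE2 5 of 9 were called, 4 up and 1 down (7.22% of all genes), and in progenitors 4 of 9, all up (3.73%). In myeloid progenitors 0 of 9 were called by limma (6.31% of all genes), with 1 at an unadjusted P under 0.05, Klf1. Since RNA was taken from whole sorted populations, a change in the share of cells of a type and a change of RNA per cell cannot be told apart.

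**Figure D1:**
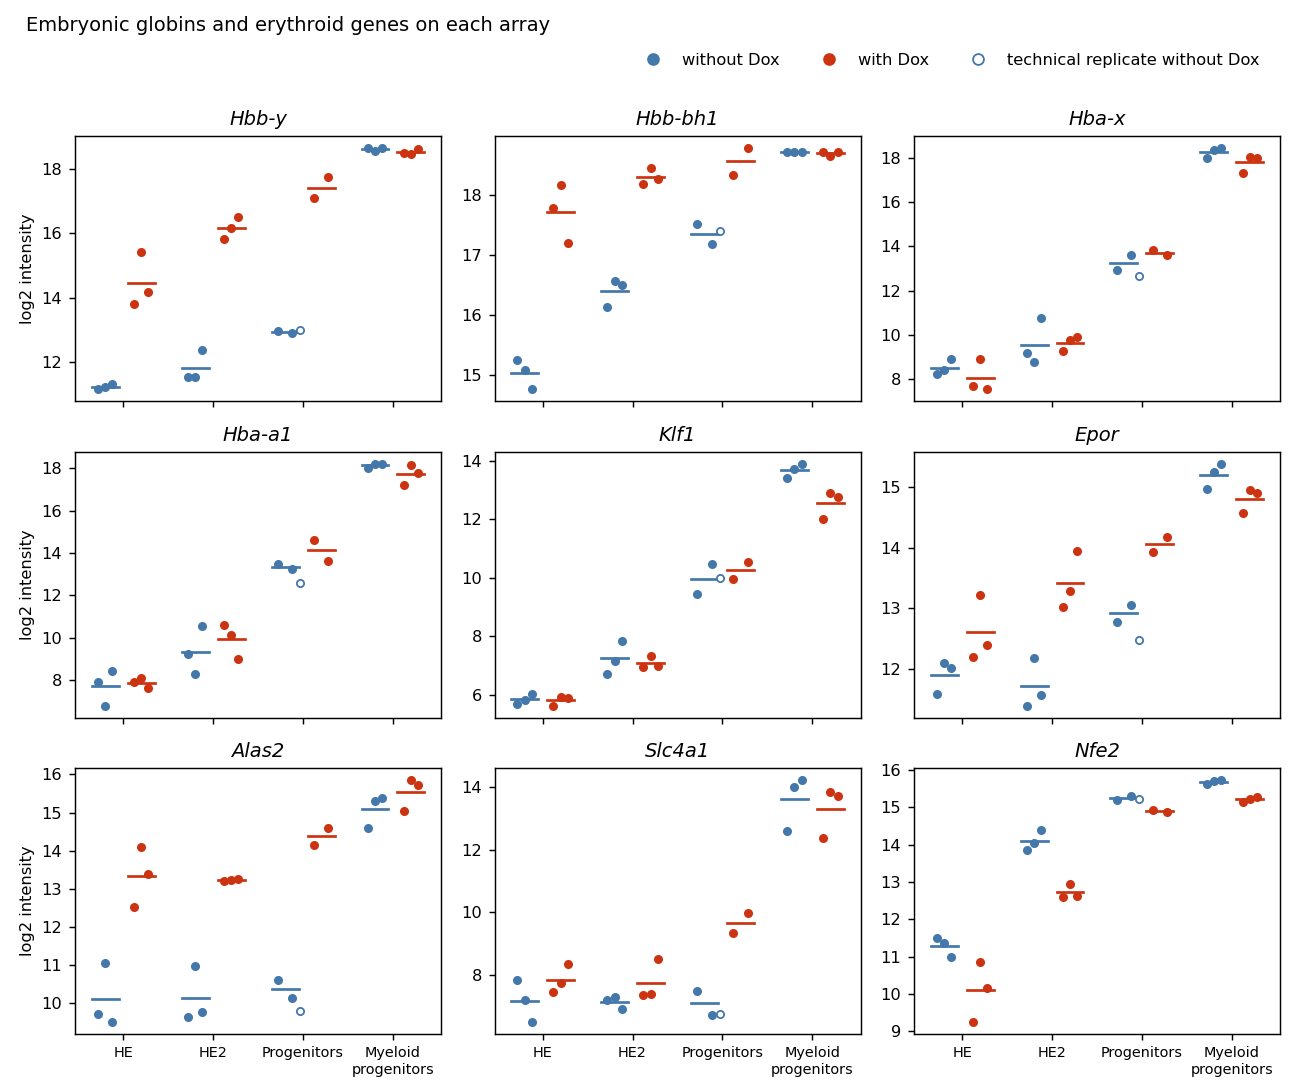
Log2 intensity of the 9 genes on each array at the 4 stages, blue without Dox, red with Dox, with a line at each group's mean and an open circle for the technical replicate that was left out of the tests. Hbb-y and Alas2 lie apart by Dox at the 3 stages of blast culture and come together in myeloid progenitors, where Hbb-y nears the upper end of the scale. Hba-x and Klf1 follow the stage with or without Dox, although Klf1 lies lower with Dox in myeloid progenitors, without overlap.

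Hbb-y, the gene of the εy chain, read 11.16, 11.24 and 11.31 on the uninduced and 13.82, 15.41 and 14.17 on the induced HE arrays, in log2 intensity. In HE2 its values were 11.54, 11.54 and 12.38 without and 15.81, 16.16 and 16.50 with Dox. Uninduced progenitors had 12.96 and 12.91, and induced progenitors 17.09 and 17.73. The levels were higher at each later stage and, within a stage, with Dox, and the groups did not overlap. The fold change was 9.37 in HE (log2 change 3.23, SE 0.31, adjusted P = 1.47e-06 from limma) and 20.2 in HE2 (4.34, SE 0.31, adjusted P = 7.98e-08). Progenitors gave 22.2 (4.47, SE 0.39, adjusted P = 1.90e-06). In order of level, all groups of blast culture stood apart from their neighbours, and even uninduced progenitors lay below induced HE cells, at means of 12.94 and 14.47. In myeloid progenitors Hbb-y read 18.65, 18.55 and 18.65 without and 18.48, 18.45 and 18.60 with Dox, and these values overlapped.

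The second Hbb-y probe gave log2 changes of 3.24, 4.38 and 4.84 with Dox in HE, HE2 and progenitors and of -0.02 in myeloid progenitors. In the last, this probe read 18.79, the highest normalized value, on every uninduced array and 18.79, 18.73 and 18.79 on the induced ones. Its change there was thus set by the upper end of the scale and does not show whether Hbb-y responded. On slide 3, where 1 induced and 1 technical replicate array of progenitors could be compared within a slide, Hbb-y was 4.72 higher with Dox, and on slide 1 it was 4.13 higher. Within slides 1 and 2 the difference was 2.62 and 3.48 in HE and 4.27 and 3.95 in HE2.

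Hbb-bh1, the gene of the βh1 chain, was among the brightest probes of the arrays. It read 15.26, 15.09 and 14.76 on uninduced and 17.78, 18.18 and 17.21 on induced HE arrays, and 16.14, 16.58 and 16.50 without and 18.19, 18.45 and 18.27 with Dox in HE2. In progenitors the values were 17.53 and 17.19 without and 18.35 and 18.79 with Dox. The induced arrays were above the uninduced ones at all 3 stages, and the distance between them was widest in HE. The fold change was 6.44 in HE (log2 change 2.69, SE 0.21, adjusted P = 1.68e-07 from limma) and 3.74 in HE2 (1.90, SE 0.21, adjusted P = 9.82e-06). Progenitors gave 2.32 (1.21, SE 0.26, adjusted P = 0.00836). The response to Dox was lower in progenitors than in HE by 1.47 on the log2 scale (SE 0.34, adjusted P = 0.0164 from limma), the only 1 of 9 members for which this difference was called, with 2.97% of all genes. The difference was no longer called with 75th percentile scaling (log2 difference -1.67, adjusted P = 0.0595 from limma), in a fit of the compared groups alone, or without uninduced HE array 3, uninduced progenitor array 1 or induced progenitor array 1, where it was -1.34, -1.30 and -1.25.

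These values neared the upper end of the scale, which quantile normalization set at 18.79 on every array. Uninduced myeloid progenitors had 18.73 on all 3 arrays for Hbb-bh1 and induced ones 18.73, 18.65 and 18.73. Hbb-bh1 ranked 2 or 3 from the top of 55681 probes on these arrays, so that a further rise could hardly have been measured there. With 75th percentile scaling, which sets no such limit, the log2 change of Hbb-bh1 with Dox was 2.51, 1.59, 0.84 and -0.41 from HE through to myeloid progenitors, and the one in progenitors was not called. The call in progenitors was also lost with the slide (0.94) or the scan date (0.99) as a block, in a fit of the progenitor groups alone, and without uninduced progenitor array 2 (1.04) or induced progenitor array 2 (0.99). Without either of these arrays Slc4a1 lost its call with Dox in progenitors as well, at log2 changes of 2.18 and 2.24.

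The α-type globins did not pass the test with Dox at any stage. Hba-x, the gene of the ζ chain, read 8.21, 8.39 and 8.89 without and 7.66, 8.91 and 7.52 with Dox in HE, and 9.18, 8.75 and 10.74 without and 9.27, 9.77 and 9.88 with Dox in HE2. In progenitors it read 12.91 and 13.62 without and 13.85 and 13.59 with Dox. Induced and uninduced arrays overlapped throughout. The log2 change was -0.46 in HE (95% interval -1.36 to 0.44), 0.08 in HE2 (-0.82 to 0.98) and 0.45 in progenitors (-0.65 to 1.55). Each interval lay below the change of Hbb-y at its stage, and the change in HE2 turned its sign with the slide as a block (-0.20). In myeloid progenitors Hba-x read 18.01, 18.35 and 18.47 without and 17.32, 18.05 and 18.03 with Dox, with overlap.

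Hba-a1, one of the adult α-globin genes, read 7.89, 6.79 and 8.42 without and 7.88, 8.08 and 7.63 with Dox in HE, and 9.21, 8.29 and 10.53 without and 10.62, 10.13 and 9.01 with Dox in HE2. In progenitors it read 13.46 and 13.25 without and 14.61 and 13.62 with Dox. The arrays overlapped in HE and HE2 but not in progenitors, where the log2 change of 0.77 (95% interval -0.52 to 2.06) did not pass the test. Within an array, the distance from the Hba-x to the Hbb-y probe grew with Dox by 3.69 in HE, 4.25 in HE2 and 4.02 in progenitors on the log2 scale, with no overlap of the arrays at any of these stages. In myeloid progenitors, where Hba-a1 read 18.02, 18.22 and 18.22 without and 17.21, 18.17 and 17.77 with Dox, that distance grew by 0.37 and the arrays overlapped. Hbb-y lay near the upper end of the normalized scale there, which limits how far this distance could grow. The distance from the Hbb-bh1 to the Hbb-y probe grew by 0.54 in HE, with overlap, and by 2.44 in HE2 and 3.26 in progenitors, without overlap. With Dox, Hbb-bh1 lay near the upper end of the normalized scale in HE2 and progenitors, and at it on induced progenitor array 2, so that its own rise is bounded there and the growth of this distance is not free of that limit.

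Alas2, the first enzyme of haem synthesis in erythroid cells, rose with Dox at all 3 stages of blast culture. In HE its uninduced values were 9.72, 11.06 and 9.51 and its induced values 12.53, 14.09 and 13.38. In HE2 it read 9.63, 10.98 and 9.77 without and 13.21, 13.22 and 13.24 with Dox, and in progenitors 10.60 and 10.12 without and 14.16 and 14.60 with Dox. Without Dox, neighbouring stages of blast culture overlapped, and with Dox all arrays lay higher. The fold change was 9.41 in HE (log2 change 3.23, SE 0.43, adjusted P = 4.07e-05 from limma) and 8.54 in HE2 (3.09, SE 0.43, adjusted P = 7.79e-05). Progenitors gave 16.2 (4.02, SE 0.53, adjusted P = 0.000131). In myeloid progenitors it read 14.60, 15.29 and 15.37 without and 15.03, 15.85 and 15.73 with Dox, with overlap and a log2 change of 0.45 (SE 0.43, adjusted P = 0.609).

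Slc4a1, the anion exchanger, was called with Dox in progenitors and at no other stage. In progenitors it read 7.49 and 6.72 without and 9.35 and 9.98 with Dox, a fold change of 5.89 (log2 change 2.56, SE 0.57, adjusted P = 0.0107 from limma). In HE it read 7.84, 7.21 and 6.52 without and 7.47, 7.76 and 8.35 with Dox, which overlapped, and the log2 change was 0.67 (SE 0.47). In HE2 the values were 7.20, 7.31 and 6.94 without and 7.36, 7.40 and 8.51 with Dox, which did not overlap but differed by a log2 change of 0.61 (SE 0.47) that did not pass the test. The response in progenitors was higher than that in HE by 1.89 and than that in HE2 by 1.95, and neither difference was called (adjusted P = 0.191 and 0.461 from limma). The call in progenitors was lost with the slide as a block (log2 change 2.17) or the scan date as a block (2.24), with array weights (2.56, adjusted P = 0.0871 from limma), and without induced progenitor array 2 (2.24) or uninduced progenitor array 2 (2.18). Against the technical replicate on slide 3, induced progenitor array 2 was 3.22 higher, and the induced and uninduced progenitor arrays of slide 1 differed by 1.86. In myeloid progenitors Slc4a1 read 12.60, 13.99 and 14.22 without and 12.36, 13.83 and 13.70 with Dox, with overlap.

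Epor, the erythropoietin receptor, read 11.40, 12.18 and 11.58 without and 13.02, 13.29 and 13.95 with Dox in HE2, and it was upregulated there 3.24-fold (log2 change 1.70, SE 0.28, adjusted P = 0.000355 from limma). In HE it read 11.59, 12.10 and 12.02 without and 12.20, 13.23 and 12.41 with Dox, and in progenitors 12.77 and 13.06 without and 13.93 and 14.18 with Dox. All induced arrays again lay above the uninduced ones. The log2 changes of 0.70 in HE (adjusted P = 0.105 from limma) and 1.14 in progenitors (adjusted P = 0.0620) did not pass the test, and the second was called when the technical replicate entered as uninduced progenitor array 3 (1.28). In myeloid progenitors Epor read 14.96, 15.23 and 15.38 without and 14.56, 14.95 and 14.90 with Dox, without overlap, and the log2 change of -0.39 was not called (adjusted P = 0.448 from limma).

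Of the transcription factors, Klf1 was dim in HE, although well above background on every array like all 9 genes, and was not called with Dox at any stage. It read 5.67, 5.82 and 6.01 without and 5.63, 5.92 and 5.87 with Dox in HE. In HE2 the values were 6.71, 7.15 and 7.85 without and 6.93, 7.32 and 6.97 with Dox, and in progenitors 9.44 and 10.48 without and 9.96 and 10.53 with Dox. Induced and uninduced arrays overlapped at these 3 stages. The log2 change was -0.02 in HE (95% interval -0.66 to 0.61), -0.16 in HE2 (-0.80 to 0.47) and 0.29 in progenitors (-0.49 to 1.07). In myeloid progenitors, by contrast, Klf1 read 13.42, 13.73 and 13.90 without and 12.02, 12.91 and 12.77 with Dox, without overlap. The difference of -1.12 on the log2 scale (SE 0.30, adjusted P = 0.0176 from limma) missed the threshold of the unadjusted P and was called in 7 of 15 alternatives. Among the 7 were an adjusted P threshold and the 2-fold threshold alone, which keep the same estimate and change only the rule for a call.

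Nfe2 fell with Dox in HE and HE2. It read 11.48, 11.37 and 10.997 without and 9.25, 10.87 and 10.16 with Dox in HE, and 13.86, 14.05 and 14.39 without and 12.60, 12.93 and 12.63 with Dox in HE2. Every induced array lay below the uninduced arrays of its stage. The decrease was 2.28-fold in HE (log2 change -1.19, SE 0.27, adjusted P = 0.00510 from limma) and 2.60-fold in HE2 (-1.38, SE 0.27, adjusted P = 0.00163). In progenitors the values were 15.21 and 15.31 without and 14.94 and 14.87 with Dox, and in myeloid progenitors 15.63, 15.70 and 15.73 without and 15.14, 15.22 and 15.28 with Dox. They were lower with Dox there too, but the log2 changes of -0.35 and -0.47 did not pass the test. Within slides, the difference in HE was -2.17 on slide 1 and -0.48 on slide 2, and the call in HE was lost without uninduced array 1 or 2 or induced array 1 or 3, with log2 changes of -1.09, -1.15, -0.77 and -1.22, and in a fit of the HE groups alone.

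**Figure D2:**
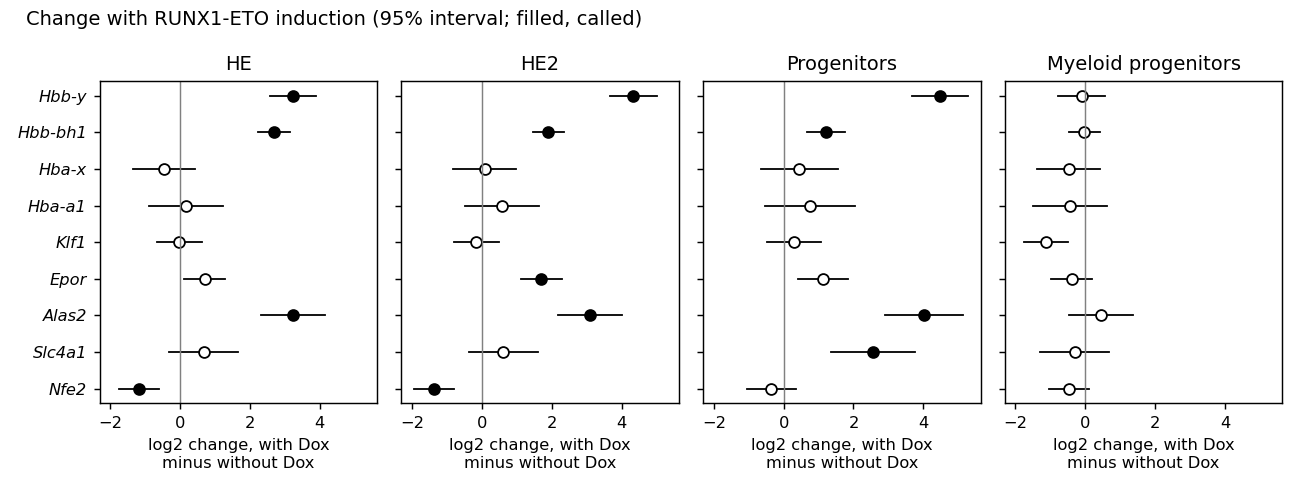
Log2 change with Dox of the 9 genes at each stage, with 95% intervals from the limma fit and filled circles for called changes. Hbb-y, Hbb-bh1 and Alas2 are called at the 3 stages of blast culture, at between 1.21 and 4.47, and no gene is called in myeloid progenitors.

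Whether the response differed between stages was tested with interaction terms. For HE2 against HE and for progenitors against HE2, 0 of 9 members were called by limma (1.34% and 0.645% of all genes), with 3 and 2 members at an unadjusted P under 0.05. Myeloid progenitors stood apart. Against progenitors, the response of Hbb-y was lower by 4.58 on the log2 scale (SE 0.50, adjusted P = 0.000178 from limma) and that of Alas2 by 3.57 (SE 0.68, adjusted P = 0.0154), 2 of 9 members where 1.5% of all genes were called. Against HE, the responses of Hbb-y, Hbb-bh1 and Alas2 were lower by 3.33 (SE 0.44), 2.71 (SE 0.30) and 2.79 (SE 0.61), 3 of 9 members with 4.72% of all genes. The 2 β-type globins were close to the upper end of the scale on all myeloid progenitor arrays. These cells also differed from the others in culture and in the length of Dox treatment, which cannot be told apart from the stage. With the slide as a block, 1 of 9 responses differed by a call from those of progenitors, and that of Alas2 (-3.29) did not pass. The difference in Alas2 between myeloid progenitors and HE lost its call without uninduced HE array 1 (-2.60) or 3 (-2.49), induced HE array 2 (-2.41) or induced myeloid progenitor array 1 (-2.53).

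The same genes were also compared between stages within each condition. Between HE and HE2 without Dox, 3 of 9 members were called, all up (5.07% of all genes): Nfe2 by 2.81 on the log2 scale (SE 0.27), Klf1 by 1.40 (SE 0.30) and Hbb-bh1 by 1.37 (SE 0.21). With Dox, 4 of 9 were called up (3.1% of all genes), which were Nfe2 at 2.63, Hba-a1 at 2.05, Hbb-y at 1.69 and Klf1 at 1.27. Between HE2 and progenitors without Dox, Hba-a1 rose by 4.01 (SE 0.56), Hba-x by 3.71 (SE 0.48) and Klf1 by 2.72 (SE 0.34), 3 of 9 members where 5.39% of all genes were called. With Dox the same comparison called 4 of 9 (7.36% of all genes), with log2 changes of 4.2 for Hba-a1, 4.08 for Hba-x, 3.17 for Klf1 and 2.19 for Nfe2. Thus Hba-x and Klf1, which did not pass the test with Dox, rose from HE2 to progenitors with or without it. The calls of Hba-a1 and Klf1 from HE to HE2 with Dox depended on single arrays: that of Klf1 was lost when any 1 of the 6 arrays was left out (1.14 to 1.34), and that of Hba-a1 when any but induced HE2 array 3 was (1.70 to 2.16). The call of Klf1 without Dox was lost without uninduced HE array 1 (1.32) or uninduced HE2 array 3 (1.095). These comparisons share groups with each other and with those of Dox, and are not independent.

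From progenitors to myeloid progenitors without Dox, 8 of 9 members were called, all up, where 13.9% of all genes were called. Slc4a1 rose by 6.5 on the log2 scale (SE 0.52), Hbb-y by 5.68 (SE 0.35), Hba-x by 5.01 (SE 0.48) and Hba-a1 by 4.80 (SE 0.56). Alas2 rose by 4.73, Klf1 by 3.73, Epor by 2.27 and Hbb-bh1 by 1.37, and Nfe2 differed by 0.43 without a call. All 4 globins then lay at the upper end of the scale, between 18.01 and 18.73 on uninduced arrays. With Dox, 4 of 9 were called up (7.37% of all genes), Hba-x by 4.08, Slc4a1 by 3.63, Hba-a1 by 3.60 and Klf1 by 2.31. Hbb-y and Alas2, already high in induced progenitors, differed by 1.1 and 1.16 without a call. Stage and culture cannot be told apart in this comparison. With the slide as a block, which rests on the 1 induced progenitor array of slide 3, 6 members were called without and 4 with Dox. The share of all genes called with this block is not given here, so that these counts cannot be set against it.

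**Figure D3:**
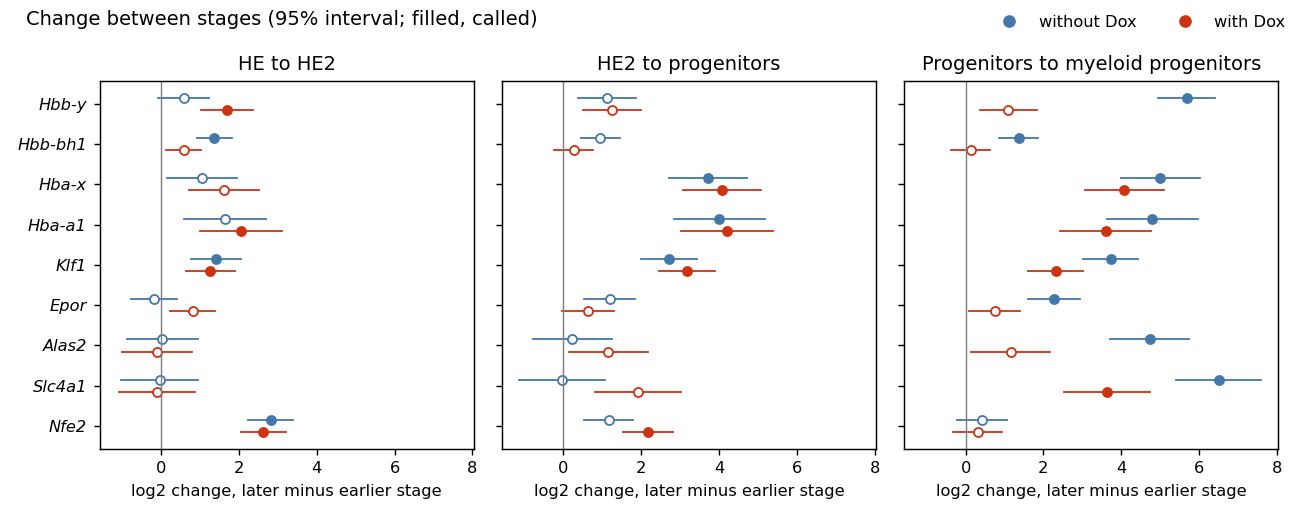
Log2 change of the 9 genes from each stage to the next, blue without and red with Dox, with 95% intervals and filled circles for called changes. Hba-x, Hba-a1 and Klf1 rise from HE2 to progenitors in both conditions, and in the last step without Dox 8 of the 9 genes are called.

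Among the genes whose pattern was most like that of Hbb-bh1, by Pearson's r of log2 intensity over the 22 arrays of the fit, were Gypc (0.961), Cd200r1 (0.945), Tmem40 (0.932) and Tal1 (0.928). Those most like Klf1 were Nckap1l (0.985), Bcl2a1d (0.981), Icam4 (0.981), Gp1bb (0.980) and Cd300c2 (0.979). The arrays share stages and slides, so that these values are descriptions.

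The wider erythroid program was examined in 7 further lists with 89 genes, of which 85 were tested. With Dox, 8 of the 85 were called up and 2 down in HE (7.09% of all genes called), 7 and 2 in HE2 (7.22%), 12 and 0 in progenitors (3.73%), and 3 and 6 in myeloid progenitors (6.31%). Their median log2 change was 0.23, 0.25, 0.42 and -0.23, compared with -0.01, -0.03, -0.04 and -0.02 over all genes tested. The count in progenitors fell to 7, 5 and 7 without uninduced array 1, uninduced array 2 and induced array 2, and to 7 with the slide as a block, and that in myeloid progenitors to 4 without uninduced array 2 or 3 or induced array 1.

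Among 7 other globin genes tested, Hbb-bt and Hbb-b2, adult β-type genes, rose with Dox in HE, HE2 and progenitors, Hbb-bh2 rose in progenitors, and Hbb-bs fell in myeloid progenitors. Hbb-bt read 8.63, 8.95 and 8.65 without and 10.21, 11.81 and 11.31 with Dox in HE. Its log2 change was 2.37 in HE (SE 0.35), 2.62 in HE2 (SE 0.35) and 2.98 in progenitors (SE 0.43), and that of Hbb-b2 was 2.17, 2.23 and 2.32. Hbb-bs changed by 0.80, 0.25 and 0.45 there without a call and by -1.06 in myeloid progenitors (SE 0.27, adjusted P = 0.0114 from limma). Hba-a2, the partner of Hba-a1, changed by 0.46, 0.92 and 0.84 without a call. These genes and Hba-a1 have near-identical copies, and since probe sequences were not used here, a value cannot be assigned to 1 copy.

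In the list of the red cell membrane, 3 of 18 genes were called in HE (7.09% of all genes), 2 in HE2 (7.22%) and 6 in progenitors (3.73%), all up. Epb42 (protein 4.2) rose by 1.43, 1.41 and 2.00 on the log2 scale and Gypc (glycophorin C) by 1.71, 1.03 and 1.15 at these stages. The β-spectrin gene Sptb rose by 1.96 in HE and 2.25 in progenitors, where the water channel gene Aqp1 (2.61) was called as well. Aqp1 is also expressed in endothelium. In myeloid progenitors Aqp1 rose by 2.07 and Add2 (β-adducin) fell by 1.12, and the median over the list was -0.52. The brightest gene, Epb41 (protein 4.1), changed by between -0.33 and 0.61 without a call.

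The haem synthesis genes other than Alas2 were not called where it was. Of 13, 0 were called by limma in HE, HE2 and progenitors (7.09, 7.22 and 3.73% of all genes). Those with an unadjusted P under 0.05 numbered 2, 2 and 3. In myeloid progenitors Abcb6, a porphyrin transporter, fell by 1.31 (SE 0.19, adjusted P = 9.07e-05 from limma), and 12 of 13 had a negative log2 change, with a median of -0.55. The brightest of them, Urod, changed by -0.04, -0.09, 0.65 and -0.28 over the 4 stages without a call. Among 10 genes of iron uptake and storage, the ferritin gene Fth1 fell by 1.60 in HE, and the iron exporter gene Slc40a1 rose by 1.69 in HE2 and 1.56 in myeloid progenitors. The transferrin receptor genes Tfr2 and Tfrc fell in myeloid progenitors by 1.94 (SE 0.29) and 1.22 (SE 0.28), as did Steap3 by 1.38. Ftl1, the brightest, changed by at most 0.12 in either direction.

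**Figure D4:**
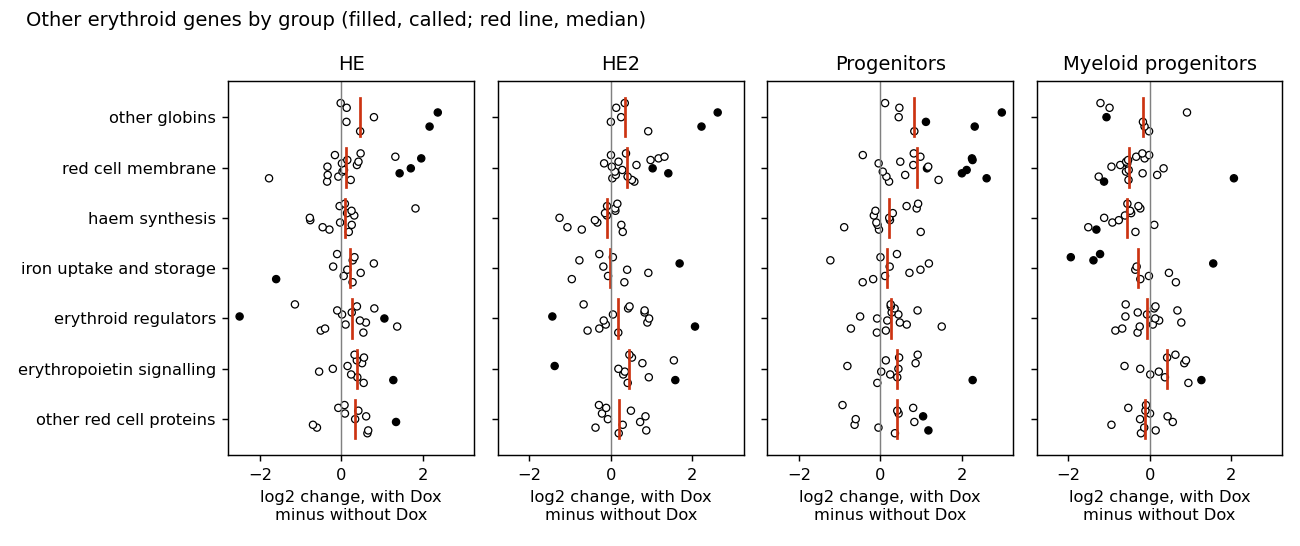
Log2 change with Dox of the genes in 7 erythroid lists at each stage, with filled circles for called changes and a red line at the median of each list. The other globins and red cell membrane genes hold 9 of the 12 calls in progenitors, whereas haem synthesis genes are centred near 0 in blast culture and below 0 in myeloid progenitors.

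Of 15 erythroid regulators, Lyl1, which encodes a partner of the SCL complex, fell by 2.50 in HE (SE 0.25, adjusted P = 1.95e-06 from limma) and by 1.44 in HE2, Lmo2 rose by 1.06 in HE, and Gata1 rose by 2.07 in HE2 (SE 0.39, adjusted P = 0.00104). Gata1 read 10.38, 11.10 and 11.25 without and 12.54, 13.11 and 13.28 with Dox in HE2. In HE and progenitors its log2 changes of 1.37 and 1.51 did not pass the test, although every induced array lay above the uninduced ones. Of the 15, 0 were called by limma in progenitors or myeloid progenitors (3.73 and 6.31% of all genes), where 2 and 4 had an unadjusted P under 0.05. In erythropoietin signalling, Cish, a target and inhibitor of STAT5 signalling, rose at all 4 stages, by 1.28, 1.58, 2.27 and 1.27. It was the 1 of 11 genes called up at each, where 7.09, 7.22, 3.73 and 6.31% of all genes were called in either direction. This count describes Cish and not the list. Ptpn6, which encodes a phosphatase that dampens the receptor, fell by 1.38 in HE2, and Bcl2l1, the brightest, changed by 0.55, 0.41, -0.07 and 0.95 without a call. Of 11 other red cell proteins, Car2 (carbonic anhydrase) rose by 1.34 in HE, Bnip3l and Fam210b rose by 1.18 and 1.05 in progenitors, and Prdx2, the brightest, changed by 0.42, 0.49, 0.42 and -0.11 without a call.

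Other lineages moved as well. Among 7 regulators of other lineages, Spi1 (PU.1) fell with Dox by 2.73 in HE2 and 2.23 in progenitors, and Fli1, the brightest, rose by 1.41, 1.58 and 1.29 in HE2, progenitors and myeloid progenitors. In the last, Erg rose by 2.08 and Gata2 by 1.26. Of 10 endothelial markers, 1 was called in HE (7.09% of all genes), 4 in HE2 (7.22%) and 4 in progenitors (3.73%), while myeloid progenitors had 8 (6.31%), all up. The summed intensity of the endothelial markers lay between 16.37 and 17.41 on uninduced and 16.53 and 17.40 on induced HE arrays (log2 of the sum), between 15.68 and 16.17 and between 17.002 and 17.09 in HE2, and between 14.67 and 14.73 and between 15.55 and 15.78 in progenitors. The endothelial sums were thus higher with Dox in HE2 and progenitors and overlapped in HE. In myeloid progenitors the sums were 13.52 to 14.00 without and 15.71 to 15.98 with Dox. Cldn5, a tight junction gene, rose at the 4 stages by 2.34, 3.20, 4.02 and 2.81.

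Of 10 megakaryocyte markers, 2 were called down in HE, 1 up and 1 down in HE2, 1 up in progenitors and 6 down in myeloid progenitors. Of all genes tested, 7.09, 7.22, 3.73 and 6.31% were called at the 4 stages, which applies to the lists that follow as well. Itga2b fell by 3.21 in HE and Treml1 rose by 3.50 in HE2 and 3.60 in progenitors. The summed level lay between 12.40 and 12.98 without and 11.33 and 13.11 with Dox in HE. In myeloid progenitors it lay between 16.84 and 17.04 without and 16.19 and 16.23 with Dox. Of 6 mast cell markers, Hdc, the histidine decarboxylase gene, rose by 5.31, 5.47, 4.25 and 5.43 over the 4 stages, and Cpa3 was called in all but HE2. Kit, Tpsb2, Mcpt4 and Cma1 were not called at any stage. Their log2 changes were 0.24, 0.19, -0.17 and 0.09 in HE and -0.60, 0.30, -0.28 and -0.04 in progenitors. The summed level of the mast cell markers was higher on every induced than on every uninduced array of a stage. It was 14.72 to 15.21 against 12.63 to 13.42 in HE and 14.00 to 14.62 against 12.87 to 13.42 in HE2. In progenitors it was 14.39 to 14.42 against 13.58 to 14.14, and in myeloid progenitors 13.88 to 15.31 against 11.38 to 12.08. By group mean, Hdc was the brightest of the 6 with Dox at every stage, so that the rise of the sum is not one of the 6 genes as a set. Of 7 granulocyte and monocyte markers, 2 fell in HE2 and 1 in progenitors, with Csf1r at -1.77 and Mpo at -1.48 in HE2 and Prtn3 at -2.32 in progenitors. Their summed level in HE2 was 13.41 to 14.00 without and 11.93 to 12.38 with Dox. Of 6 cardiac markers, 1 was called up in HE, 1 down in HE2, 2 up in progenitors and 1 up in myeloid progenitors. Those called in progenitors were Tnni1 (2.79), the brightest of the 6 there, and Tnnt2 (1.84). Actc1, Nkx2-5, Myh6 and Myl7 changed by -0.01, 0.006, -0.12 and 0.06 in progenitors, so that the sum does not stand for all 6. The summed level was 12.85 to 13.73 with against 10.89 to 10.94 without Dox in progenitors. It was also higher with Dox in myeloid progenitors (13.90 to 14.27 against 11.89 to 13.13). In HE it was lower with Dox (12.47 to 12.56 against 12.60 to 13.04), and in HE2 the arrays overlapped (11.34 to 12.38 against 12.02 to 12.31). The part of these other cell types in the change of the globin and erythroid genes was not tested.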

How the data were processed

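RNA of sorted mouse cells was hybridised to 23 Agilent 1-colour arrays annotated on mm9. The authors deposited scanner files with background and median spot intensity for 62976 spots per array, made per the labels with Agilent Feature Extraction 10.7.1.1 (10.7.3.1 per the file headers), and a table of quantile-normalized log2 values, which served as an alternative. The mean signal was planned for, but the files held the median, which was used in its place. From these intensities, background was corrected with normexp (offset 16) in limma 3.58.1 under R 4.3.3, 3671 control spots were removed, spots flagged as outliers (0.324%) were set to missing, arrays were quantile normalized and spots averaged for 55681 probes. No fitted value of the 9 genes lacked an array. Quantile normalization gives every array the same highest value. Accessions were matched to RefSeq symbols (GRCm38.p6) for 26582 probes of 20145 genes, and the probe with the highest mean was kept per gene. Genes that reached a log2 intensity of 6.5 on at least 1 array (15202) were tested in 1 limma fit of group means over 22 arrays with 14 residual degrees of freedom. Called changes had P of at most 0.001 and at least 2-fold, and adjusted P values are Benjamini-Hochberg values over all genes tested.

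The 9 genes and the lists were chosen with earlier results of these data known. Besides the 9 genes, each list's up to 4 called genes with the largest change and its brightest gene, if not called, were named, as were the 5 genes most correlated with Hbb-bh1 and with Klf1. Some genes that this rule picks are not reported here. The labels call the arrays biological replicates without saying whether cultures were separate, so that P values measure the spread between these arrays, which may be technical. Arrays of the same number deviated together between HE and HE2 without Dox (correlations of 0.394, 0.795 and 0.608 over genes), and the numbers were taken to pair these samples from the data, as the labels name no shared culture. In both groups arrays 1 and 2 lay on slide 1 and array 3 on slide 2, so that a shared culture and a shared slide cannot be told apart. In other comparisons the correlations were mixed, from -0.534 for array 2 with Dox in HE2 to 0.694 for array 2 with Dox in HE. The number of arrays limits the precision. Alternatives changed the background offset, scaling, filters, probe choice, threshold, blocks, arrays in the fit and weights. The statistics were tested on simulated data.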

Additional observations from a re-analysis of the deposited data

Results flagged for a closer look

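The response to Dox differed between stages for 3 of the 9 genes by a test of the difference itself, an interaction term in limma. The response of Hbb-bh1 in progenitors minus that in HE was -1.47 on the log2 scale (adjusted P = 0.0164). In myeloid progenitors minus progenitors, the difference was -4.58 for Hbb-y (adjusted P = 0.000178) and -3.57 for Alas2 (adjusted P = 0.0154). In myeloid progenitors minus HE, it was -3.33 for Hbb-y (adjusted P = 0.000181), -2.71 for Hbb-bh1 (adjusted P = 2.80e-05) and -2.79 for Alas2 (adjusted P = 0.00758). The values of both globins in myeloid progenitors lay near the highest normalized value of 18.79, and those of Alas2, at 14.60 to 15.85, did not.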

How the results depend on the processing

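Of 225 counts of called members under other settings, 200 were within 1.5 times the reported count. With Dox in myeloid progenitors, 1 member (Klf1) was called with an offset of 50, the deposited log2 values, an adjusted P threshold, the 2-fold threshold alone, the slide as a block, array weights or the replicate block. Over all genes, 837, 834, 1166, 1326, 996, 1179 and 977 were called under these settings, against 960 in the main fit. The offset of 50 and the deposited values had 17236 and 17307 genes tested, the others 15202. With Dox in progenitors 2 were called with the slide or scan date as a block, where 331 and 349 of all genes were called, against 567 in the main fit. From HE2 to progenitors without Dox, 5, 6 and 7 were called by adjusted P, by 2-fold alone and with array weights. Of the 15202 genes tested, 1032, 1399 and 1065 were called there, against 820 in the main fit. By 2-fold alone, 5 were called from HE to HE2 without Dox and 7 from HE2 to progenitors with Dox, and the response differed for 1 (HE2 against HE), 2 (progenitors against HE2), 3 (progenitors against HE), 7 (myeloid progenitors against progenitors) and 5 (myeloid progenitors against HE). The counts over all genes rose as well. They were 1189 and 1927 by 2-fold alone for the stages, against 770 and 1119 in the main fit. For the responses, in the order given, they were 928, 1203, 2199, 1530 and 1781, against 203, 98, 451, 228 and 718. Progenitors against HE gave 0 with 75th percentile scaling or only the compared groups, and myeloid progenitors against progenitors gave 1 with the slide as a block, 4 with only the compared groups, 5 with the technical replicate as replicate 3 and 4 with the replicate block. Over all genes, the first comparison then had 360 (of 15612 tested) and 245 calls, and the second 155, 306, 248 and 256. Erythroid list genes called numbered 14 (2-fold alone) and 5 (only the compared groups) in HE2, 7 in progenitors (slide block, scan date block or only the compared groups) and 14 in myeloid progenitors (array weights). The log2 change of Klf1 in HE became 0.057 with 75th percentile scaling and 0.026 with array weights, and that of Hba-x in HE2 -0.20 with the slide as a block and -0.050 with array weights. The cause was not tested. With 75th percentile scaling the median of all genes moved to -0.19 with Dox in progenitors and -0.15 in myeloid progenitors, and to -0.25 without and -0.19 with Dox from progenitors to myeloid progenitors.

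Leaving out each array in turn gave 3 to 4 called members with Dox in HE, 5 to 5 in HE2, 2 to 4 in progenitors and 0 to 0 in myeloid progenitors. It gave 2 to 4 from HE to HE2 with or without Dox, 3 to 4 and 4 to 5 from HE2 to progenitors without and with Dox, and 7 to 8 and 4 to 4 from progenitors to myeloid progenitors. Responses differed for 0 to 1 (HE2 against HE), 0 to 0 (progenitors against HE2), 0 to 2 (progenitors against HE), 2 to 3 (myeloid progenitors against progenitors) and 2 to 3 (myeloid progenitors against HE). Erythroid list genes called ranged from 8 to 10 in HE, 7 to 10 in HE2, 5 to 14 in progenitors and 4 to 9 in myeloid progenitors. Log2 changes that crossed 0 ranged from -0.29 to 0.52 for Hba-a1 in HE, -0.107 to 0.066 for Klf1 in HE, -0.32 to 0.67 for Hba-x and -0.43 to 0.15 for Klf1 in HE2, -0.23 to 0.81 for Klf1 in progenitors, and -0.81 to 0.16 for Slc4a1 and -0.039 to 4.3e-05 for Hbb-bh1 in myeloid progenitors. In the paired comparison of HE with HE2 without Dox, the replicate block left the number of called members at 3. The counts with single arrays left out or with this block stand without the number called over all genes in the same fits. Fewer called members and fewer calls over all genes can therefore not be told apart there. All 9 genes were well above background on every array. For Hbb-bh1, and for Hbb-y in myeloid progenitors, the upper end of the scale limits what could be measured.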
